A study of Mus musculus with 10 samples.

Results

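Counts of 10 genes of interleukin-1 (IL-1), IL-6, tumour necrosis factor (TNF) and STAT3 signalling were compared in the pancreas tail of mice that differ in the insulin receptor gene Insr. The genes were taken by symbol from a deposited table of raw counts: the ligands Il1a, Il1b, Il33, Il6 and Tnf, the receptor genes Il6ra and Osmr, the transcription factor gene Stat3, its target and inhibitor Socs3, and the enzyme gene Ptgs2. All 10 were among the 24421 genes of the table. A low-count filter passed 8 of them, together with 13688 genes in all, and left out Il6 and Tnf. The title of the series sets the question: what the insulin receptor of acinar cells, the enzyme-secreting cells of the pancreas, does to digestive enzymes and inflammation.

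RNA came from a piece of the tail of the pancreas of female mice aged 12 weeks, and each of the 10 libraries is 1 mouse. Every mouse carried Ptf1aCreER, a Cre recombinase that needs a ligand of the oestrogen receptor to act and is expressed from Ptf1a, a gene of acinar cells, and the nuclear reporter nTnG. The 3 WT mice had 0 floxed Insr alleles (Insrw/w), the 3 Het mice had 1 (Insrw/f) and the 4 KO mice had 2 (Insrf/f). A floxed allele is lost only in cells in which Cre acts, so cells of other types in the piece keep it. A label counts 1 more WT mouse, which was not analysed here, and each library is named by its genotype and mouse number, as in WT-2404.

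IL-1 alpha, IL-1 beta and IL-33 are cytokines of 1 family whose receptors signal through the adaptor MYD88 to NF-kappaB. TNF reaches NF-kappaB through its own receptors. IL-6 binds the IL-6 receptor and then gp130, the shared signalling chain encoded by Il6st, and oncostatin M binds a receptor made of gp130 and the product of Osmr. Both receptors activate JAK kinases, which phosphorylate STAT3. STAT3 in turn drives Socs3, whose product blocks gp130 signalling. Ptgs2 encodes cyclooxygenase-2, the inducible first enzyme of prostaglandin synthesis. In the pancreas these pathways are known for their part in pancreatitis and in the exchange of signals between immune cells, fibroblasts and epithelium.

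Promoter sequences of 4 members are shown because they hold binding motifs of these pathways before the start or belong to the member with the smallest unadjusted p. They come from RefSeq on GRCm38.p6, whose table matched all 10 members with windows from 250 bases before to 50 bases after the start. The motifs searched on both strands were TTCNNNGAA for STAT proteins, TGANTCA for AP-1 and the NF-kappaB motif. Among 32851 mouse promoter windows of 300 bases they occurred in 8.3%, 7.81% and 4.51%, so a match is common by itself. The 30 bases of Socs3 at chr11:117969502-117969531 (minus strand) hold a STAT motif, shown in capitals, at 154 to 146 bases before the RefSeq start. GENCODE lists a further transcript that starts upstream of it, at 117970047, and 77 bases of that window lie in GENCODE exons but 0 of the 30 bases shown.
Socs3: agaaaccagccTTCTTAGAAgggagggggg
The 250 bases before Il6, at chr5:30012864-30013113 (plus strand), hold an AP-1 motif 249 to 243 bases and an NF-kappaB motif 44 to 35 bases before the start, both in capitals.
Il6: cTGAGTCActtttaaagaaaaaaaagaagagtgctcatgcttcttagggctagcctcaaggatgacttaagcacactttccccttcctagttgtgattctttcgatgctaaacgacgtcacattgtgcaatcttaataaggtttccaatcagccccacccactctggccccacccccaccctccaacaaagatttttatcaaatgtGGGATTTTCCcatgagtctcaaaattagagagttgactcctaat
The 250 bases before Il1a, at chr2:129309973-129310222 (minus strand), hold an AP-1 motif in capitals at 12 to 6 bases before the start.
Il1a: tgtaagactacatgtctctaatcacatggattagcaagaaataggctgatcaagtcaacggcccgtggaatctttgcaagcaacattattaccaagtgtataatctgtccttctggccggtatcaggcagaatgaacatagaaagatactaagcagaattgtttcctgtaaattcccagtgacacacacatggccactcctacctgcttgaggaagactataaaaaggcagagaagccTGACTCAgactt
The 250 bases before Il33, at chr19:29924863-29925112 (plus strand), have no capitals, since none of the motifs was found in them. The window of Osmr held an AP-1 motif 4 to 10 bases after the start, which is not shown, and those of the other members held none.
Il33: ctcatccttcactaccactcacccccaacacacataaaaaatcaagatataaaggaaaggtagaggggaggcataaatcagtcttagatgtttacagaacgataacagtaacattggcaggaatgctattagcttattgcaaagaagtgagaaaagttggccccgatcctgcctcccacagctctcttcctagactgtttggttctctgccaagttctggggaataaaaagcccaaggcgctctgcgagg

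Gene counts per library ran from 11718559 to 19024351, and these totals overlapped between the groups. Library sizes scaled for composition were 16318446 to 59843245 in WT, 10727768 to 16287990 in Het and 7589624 to 21689399 in KO. By that measure every Het library was under every WT library, which limits the low-count members. WT-2404 stood apart from the other libraries: genes of digestive enzymes took 16.6% of its counts and 61.1% to 80.7% of the counts elsewhere. The enzyme share was 74.3% to 79.2% in Het and 65.3% to 80.7% in KO libraries. Counts of members and listed genes at an unadjusted p under 0.05, and fold changes of Il33, Osmr, Socs3 and some other genes, are therefore also given without WT-2404. Other values are with all libraries unless stated. Levels are counts-per-million (CPM) of the library size after scaling for composition (TMM). A count of 0 allows up to 3 counts, which is 0.0501 to 0.395 CPM depending on the library, for counting error only. Insr itself had 253 to 1259 counts per library, with means of 29.8 ± 9.89, 38.5 ± 8.93 and 31.5 ± 5.96 CPM in WT, Het and KO (SD, n = 3, 3 and 4). A count per gene cannot tell a full from a shortened transcript, so these values do not check the labels.

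Il33, Osmr and Socs3 were lower in each of the 7 Het and KO libraries than in any WT library, and their fitted levels were 1.80 to 2.53 times lower in KO than in WT. Il1a was lower in every KO library than in any WT library. Il6ra and Stat3, the receptor and the transcription factor between the cytokines and Socs3, had overlapping ranges in the 3 groups. No member passed the adjusted threshold of 0.05 in edgeR's quasi-likelihood test over the 13688 genes, and no other gene did, although 3222 genes had an unadjusted p under 0.05 for KO and 2715 for Het against WT. At that p, 4 of 8 tested members were lower in KO than in WT (Il1a, Il33, Osmr and Socs3) and 3 of 8 in Het than in WT (Il33, Osmr and Socs3). Of all tested genes, 13.9% were lower by the same rule in KO and 11.6% in Het. Without WT-2404 the counts of members were 4 and 3 of 8 again, while the shares of all tested genes were 5.29% and 3.61%. The ranges of the same 4 members were separate from WT in KO, beside 9.15% of tested genes, and those of the same 3 in Het, beside 13.5%.

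**Figure D1:**
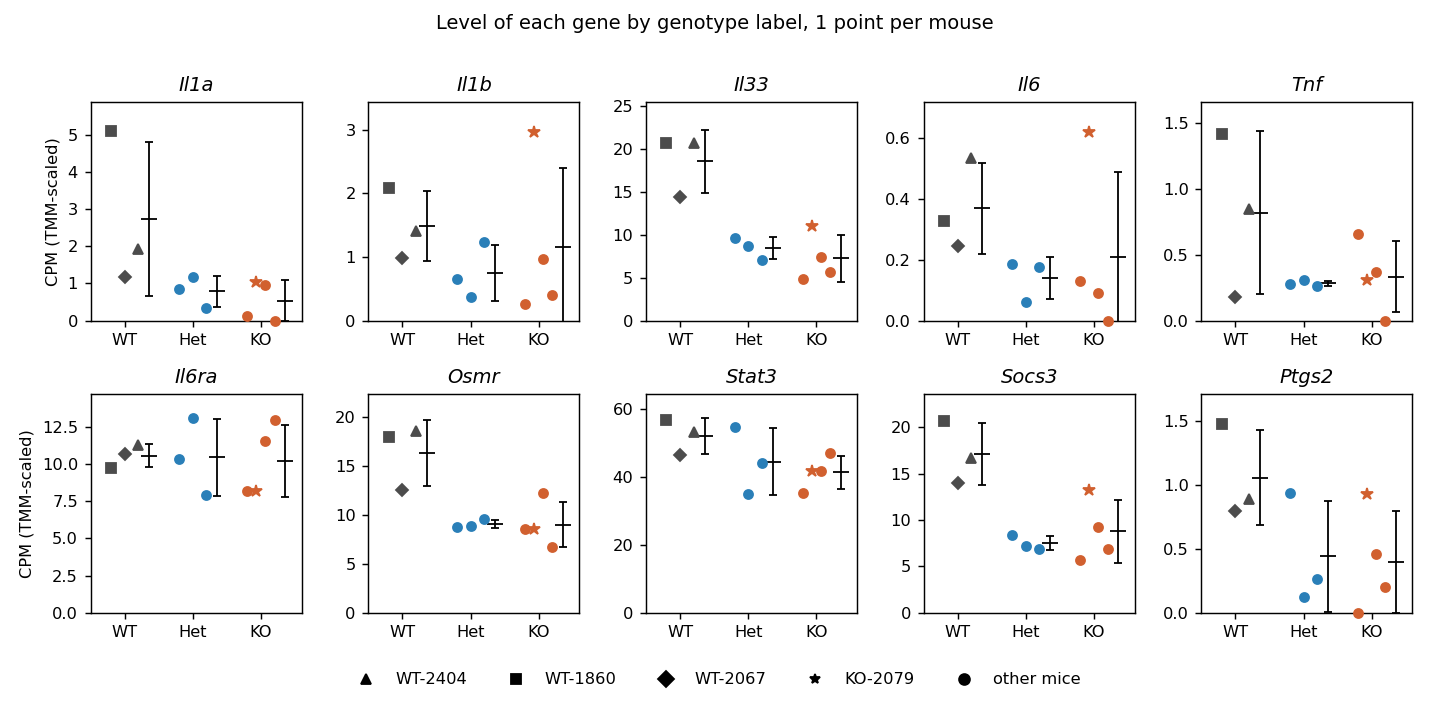
Level of each member in each library, in TMM-scaled CPM, for WT (n = 3), Het (n = 3) and KO (n = 4). Points are mice, black bars are the mean ± SD, and the triangle, square, diamond and star mark WT-2404, WT-1860, WT-2067 and KO-2079. For Il33, Osmr and Socs3 all Het and KO points lie under the lowest WT point.

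Il33 encodes a nuclear cytokine of the IL-1 family that is released from damaged cells and binds the receptor ST2. The gene lies at chr19:29925114-29960718 on the plus strand of GRCm38 and has up to 8 exons per transcript. Its level was 20.7, 20.7 and 14.3 CPM in WT-2404, WT-1860 and WT-2067, and 7.11, 9.60 and 8.72 CPM in Het-2066, Het-1770 and Het-2042. In KO-2079, KO-2070, KO-2124 and KO-2126 it was 11.1, 4.88, 7.42 and 5.66 CPM. The lowest WT value thus lay above the highest value of either other group, and KO-2079 was the highest of the 7 Het and KO libraries. In KO against WT its log2 fold change stood at -1.34 (SE 0.26, unadjusted p = 0.000228, adjusted p = 0.116 in edgeR), a level 2.53 times lower. Het against WT gave -1.13 (SE 0.28, adjusted p = 0.184 in edgeR), a level 2.19 times lower. These comparisons share the 3 WT libraries, so they are not independent of each other. The difference between KO and Het, -0.20 (SE 0.27), was smaller than its error. The exact two-sided permutation test over mice gave p = 0.0571 for KO and p = 0.1 for Het against WT, where 0.0286 and 0.1 are the smallest values the group sizes allow. In these bulk samples, fewer cells of a type and less RNA per cell cannot be told apart.

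Il1a encodes IL-1 alpha, which like IL-33 is held inside cells and is active when released. It lies at chr2:129299610-129309972 on the minus strand, with up to 7 exons per transcript, and 222 bases of its exons overlap the gene Gm14023 on the other strand. The level of Il1a was 1.94, 5.09 and 1.16 CPM in WT-2404, WT-1860 and WT-2067, and 0.351, 0.839 and 1.17 CPM in Het-2066, Het-1770 and Het-2042. In the 4 KO libraries, KO-2079 stood at 1.05, KO-2070 at 0.132, KO-2124 at 0.968 and KO-2126 at 0 CPM. Every KO value was under the lowest WT value, while Het-2042 was just above it, and the WT spread was set by WT-1860. Counts of Il1a were low, from 0 in KO-2126 to 116 in WT-2404. In KO against WT its log2 fold change stood at -2.16 (SE 0.79, unadjusted p = 0.0184, adjusted p = 0.146 in edgeR), and -1.39 without WT-1860. For Het against WT it was -1.76 (SE 0.86, adjusted p = 0.271 in edgeR), and -0.97 without WT-1860.

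Il1b encodes IL-1 beta, which is made as a precursor and cut by caspase-1. It lies at chr2:129364570-129371139 on the minus strand, near Il1a. Its level was 1.40, 2.08 and 0.980 CPM in WT-2404, WT-1860 and WT-2067, and 1.23, 0.653 and 0.368 CPM in Het-2066, Het-1770 and Het-2042. KO-2079 had 2.97 CPM, the highest of the 10 libraries, beside 0.264, 0.968 and 0.404 CPM in KO-2070, KO-2124 and KO-2126. A single mouse therefore set the KO mean of 1.15 ± 1.25 CPM (SD, n = 4), and the 3 groups overlapped. KO against WT gave a log2 fold change of -0.30 (SE 0.69, adjusted p = 0.820 in edgeR), which was -1.32 without KO-2079 and close to 0, at -0.0008, without WT-1860. Het against WT gave -1.01 (SE 0.78, adjusted p = 0.459 in edgeR). For KO against Het it was 0.71 (SE 0.75), and -0.31 without KO-2079.

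Il6 and Tnf, the ligands most often taken to stand for these pathways, were close to the limit of detection. Il6 (chr5:30013114-30019981, plus strand) had 32, 6 and 4 counts in WT-2404, WT-1860 and WT-2067, then 2, 2 and 1 in Het-2066, Het-1770 and Het-2042. The 4 KO libraries held 10 (KO-2079), 1 (KO-2070), 2 (KO-2124) and 0 (KO-2126). Scaled to library size, Il6 was 0.245 to 0.535 CPM in WT, 0.0614 to 0.186 in Het and 0 to 0.618 in KO. The Het values lay under the WT values and KO-2079 lay above them, with an exact permutation p of 0.1 for Het and 0.286 for KO against WT. Tnf (chr17:35199381-35202007, minus strand) had 51, 26 and 3 counts in WT-2404, WT-1860 and WT-2067, and 3, 3 and 5 in Het-2066, Het-1770 and Het-2042. It had 5, 5, 8 and 0 counts in KO-2079, KO-2070, KO-2124 and KO-2126. In CPM, Tnf was 0.184 to 1.42 in WT, 0.263 to 0.307 in Het and 0 to 0.659 in KO, so WT-2067 lay under all 3 Het libraries. The exact permutation p was 0.314 for KO and 0.4 for Het against WT. At this depth no difference in Il6 or Tnf between KO and WT was detectable.

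Osmr encodes the oncostatin M-specific receptor chain and lies at chr15:6813577-6874969 on the minus strand, with up to 18 exons per transcript. Its level was 18.5, 17.9 and 12.5 CPM in WT-2404, WT-1860 and WT-2067, and 9.56, 8.76 and 8.84 CPM in Het-2066, Het-1770 and Het-2042. In KO-2079, KO-2070, KO-2124 and KO-2126 it was 8.60, 8.56, 12.2 and 6.67 CPM. Only a small gap, from 12.2 CPM in KO-2124 to 12.5 CPM in WT-2067, separated the KO from the WT values. The log2 fold change against WT was -0.85 in KO (SE 0.22, unadjusted p = 0.00198, adjusted p = 0.116 in edgeR), a level 1.80 times lower. In Het it was also -0.85 (SE 0.24, adjusted p = 0.184 in edgeR), and exact permutation gave p = 0.0571 for KO and 0.1 for Het. The level was 9.06 ± 0.442 CPM in Het (SD, n = 3) and 9.01 ± 2.32 CPM in KO (SD, n = 4).

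Il6ra encodes the ligand-binding chain of the IL-6 receptor and lies at chr3:89864059-89913196 on the minus strand, where 242 bases of its exons overlap the antisense gene Gm42809. It was at 11.3, 9.74 and 10.7 CPM in WT-2404, WT-1860 and WT-2067, and 7.90, 10.3 and 13.1 CPM in Het-2066, Het-1770 and Het-2042. KO-2079, KO-2070, KO-2124 and KO-2126 had 8.16, 8.17, 11.5 and 12.9 CPM. The WT values lay inside the range of both other groups. The log2 fold change against WT was -0.05 in KO (95% interval -0.54 to 0.44, adjusted p = 0.913 in edgeR) and -0.01 in Het (95% interval -0.53 to 0.51, adjusted p = 0.981 in edgeR). Its sign turned with single libraries left out. WT-2404, with its low enzyme share, did not stand apart for Il6ra.

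Stat3 lies at chr11:100885098-100939540 on the minus strand, with up to 24 exons per transcript, and 72 bases of its exons overlap Stat5a on the other strand. It was the most abundant member, at 53.4, 56.7 and 46.4 CPM in WT-2404, WT-1860 and WT-2067 and 44.0, 54.6 and 35.1 CPM in Het-2066, Het-1770 and Het-2042. In KO-2079, KO-2070, KO-2124 and KO-2126 it was 41.8, 35.2, 41.7 and 47.0 CPM. KO-2126 was just above WT-2067, so the groups overlapped by 1 library on each side. The log2 fold change against WT was -0.33 in KO (95% interval -0.76 to 0.10, adjusted p = 0.316 in edgeR), with an exact permutation p of 0.0857. In Het it was -0.23 (95% interval -0.69 to 0.23, adjusted p = 0.544 in edgeR), with an exact permutation p of 0.3. Transcript counts do not measure the phosphorylation by which STAT3 is activated.

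Socs3 lies at chr11:117966079-117970047 on the minus strand and has 2 exons. The window before its RefSeq start held the STAT motif shown above, which lies inside these GENCODE bounds of the gene. Its level was 16.7, 20.7 and 14.0 CPM in WT-2404, WT-1860 and WT-2067, and 6.93, 8.39 and 7.24 CPM in Het-2066, Het-1770 and Het-2042. In KO-2079, KO-2070, KO-2124 and KO-2126 it was 13.3, 5.67, 9.27 and 6.87 CPM. KO-2079 came close to WT-2067, and the other 3 KO libraries were among the Het values or near them. The log2 fold change against WT was -0.94 in KO (SE 0.26, unadjusted p = 0.00320, adjusted p = 0.116 in edgeR), a level 1.92 times lower, and -1.22 without KO-2079. In Het it was -1.19 (SE 0.29, unadjusted p = 0.00121, adjusted p = 0.184 in edgeR), a level 2.28 times lower. The exact permutation p was 0.0571 for KO and 0.1 for Het, and KO against Het gave 0.24 (SE 0.27).

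Ptgs2 (chr1:150100031-150108227, plus strand, up to 10 exons) was a low-count gene, with 0 counts in KO-2070 and 53 in WT-2404. It was at 0.886, 1.48 and 0.797 CPM in WT-2404, WT-1860 and WT-2067, and 0.263, 0.932 and 0.123 CPM in Het-2066, Het-1770 and Het-2042. KO-2079, KO-2070, KO-2124 and KO-2126 had 0.928, 0, 0.461 and 0.202 CPM. Both other groups held 1 library (Het-1770 and KO-2079) within the WT range and the rest under it. The log2 fold change against WT was -1.24 in KO (SE 0.78, adjusted p = 0.343 in edgeR) and -1.31 in Het (SE 0.88, adjusted p = 0.397 in edgeR). It was -1.96 in KO without KO-2079 and -2.45 in Het without Het-1770.

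**Figure D2:**
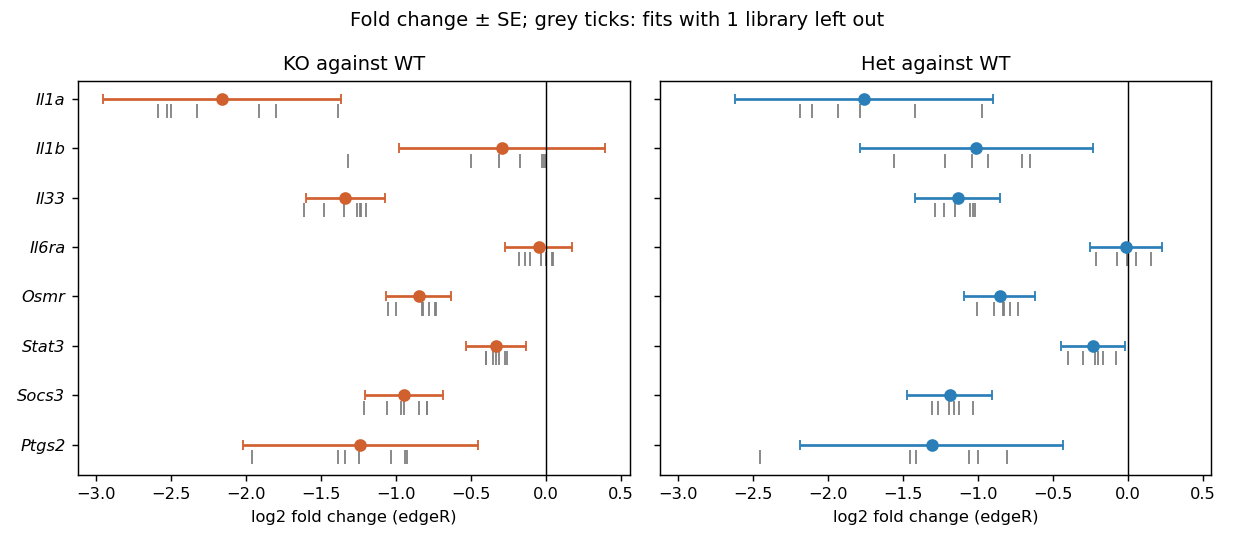
Fitted log2 fold change of the 8 tested members against WT, for KO on the left and Het on the right, with bars of 1 standard error and grey ticks for the fits that leave out 1 library each. All 8 lie under 0 on both sides, with Il33 at -1.34 and -1.13 and Il6ra at -0.05 and -0.01, and some of the ticks of Il6ra cross 0. Ptgs2 passed the low-count filter only with the WT libraries.

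The 8 tested members were lower in KO than in WT, and again in Het than in WT, by fitted fold change alone. Ptgs2, highest on average in WT, passed the low-count filter only with the WT libraries, so the filter favoured its lower sign. The medians below include it. A fit of KO and Het alone tested 7 members. Of all tested genes, 48.1% were lower in KO and 49.7% in Het. The median log2 fold change of the members was -0.90 in KO and -1.07 in Het against WT, beside 0.03 and 0.00 over all tested genes. In KO against Het, 4 of 8 members were lower, beside 48.5% of all genes, with a median of -0.02 beside 0.01 over all genes. None of the 8 had an unadjusted p under 0.05 there, beside 0.752% of all genes. In the tested set, 5.84% of genes had every Het and KO library under every WT library, as 3 of 8 members did. These counts describe the members, which are not independent of each other.

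In edgeR with TMM scaling, leaving out 1 library at a time let members pass the adjusted threshold only without WT-2067. It was the lowest WT library for 9 of 10 members, with an enzyme share of 74.5%, and without it 1932 genes passed in KO and 1160 in Het against WT, where 0 did with all libraries. Il33 then stood at -1.48 in KO (adjusted p = 0.0193 in edgeR) and -1.28 in Het (0.0344). Osmr stood at -1.0 in both (0.0229 in KO and 0.0364 in Het, adjusted p in edgeR). Socs3 stood at -1.06 in KO and -1.30 in Het (0.0324 and 0.0350, adjusted p in edgeR). Without WT-2404 instead, adjusted p was 0.504 or higher in KO and 0.616 or higher in Het for every gene. Il33 then had log2 fold changes of -1.24 and -1.03, Osmr -0.74 and -0.73, Socs3 -0.95 and -1.19, in KO and Het respectively, and Il1a had -2.33 in KO. The sizes for these members thus remained close to those with all libraries.
With DESeq2 on all 10 libraries, Il33 (adjusted p = 0.00297), Osmr (0.0227) and Socs3 (0.0314) passed in KO against WT, among 1009 genes. Il33 (0.0345) and Socs3 (0.0284) passed in Het against WT, among 326 genes, by the adjusted p of DESeq2. With library size alone, edgeR passed 5 members in KO and 5 in Het against WT, among 2841 and 3140 genes. Passing thus depended on the test and the scaling as well as on WT-2067.

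**Figure D3:**
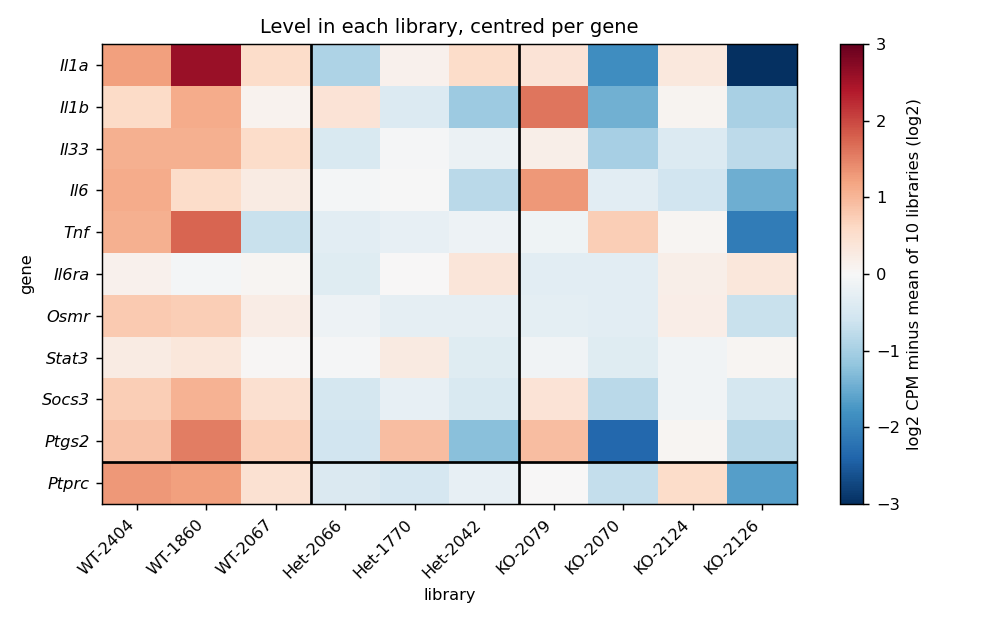
Log2 CPM of the 10 members and, in the bottom line, Ptprc in each of the 10 libraries, centred on each gene's mean, on a colour scale from -3 to 3. WT-2404 and WT-1860 are above the mean for most members, KO-2070 and KO-2126 under it, and Il6ra and Stat3 stay near it in all libraries.

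Single libraries led across several members. Among all 10 libraries, WT-1860 held the highest level of 5 members, WT-2404 of 2, KO-2079 of 2 (Il1b and Il6) and Het-2042 of 1 (Il6ra). KO-2070 and KO-2126 held the lowest level of 4 members each. These libraries had the smallest sizes after TMM scaling, 7589624 and 9892510, and the largest enzyme shares, 80.7% and 80.5%. Within the KO group, KO-2079 was the highest for 6 of 10 members. The spread over libraries differed between members: the highest level was 1.62 times the lowest for Stat3, 1.66 for Il6ra, 2.78 for Osmr, 3.65 for Socs3, 4.25 for Il33 and 11.3 for Il1b.

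Per kilobase of exon, the order of levels ran from Stat3 at 7.32 ± 1.22 CPM per kilobase (SD over 10 libraries) through Socs3 at 4.27 ± 1.96, Il33 at 3.82 ± 2.0, Osmr at 2.04 ± 0.744 and Il6ra at 1.20 ± 0.219. The low end held Il1b at 0.835 ± 0.627 CPM per kilobase, Il1a at 0.643 ± 0.738, Tnf at 0.283 ± 0.252, Ptgs2 at 0.132 ± 0.103 and Il6 at 0.0978 ± 0.0833. The signal transducer and its inhibitor were thus at the top and the secreted ligands, apart from Il33, at the bottom. Every pair of neighbours in this order had overlapping ranges over the libraries. Within libraries, Stat3 was above Socs3 in all 10 and Il33 above Osmr in all 10, while Osmr was above Il6ra in 9. Socs3 was above Il33 in 7, Il6ra above Il1b, Il1b above Il1a and Il1a above Tnf in 8 each, and Tnf above Ptgs2 and Ptgs2 above Il6 in 6 each.

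Markers of macrophages, fibroblasts, ducts, neutrophils, T cells and B cells were lower in both comparisons by median fold change, as the members were. The sums of endothelial, mast cell and mesothelial markers overlapped between WT and the other groups. Those of macrophage, neutrophil, T cell and B cell markers also overlapped between WT and KO, while in Het they lay under every WT library. Ptprc, which encodes the leukocyte antigen CD45, was at 40.2, 38.1 and 22.4 CPM in WT-2404, WT-1860 and WT-2067, at 11.4 to 13.5 CPM in Het and at 5.05 to 23.7 CPM in KO. The summed level of 12 macrophage markers was 479 to 1944 CPM in WT, 258 to 391 in Het and 150 to 552 in KO. At an unadjusted p under 0.05 in edgeR, 11 of 12 were lower in KO and 12 of 12 in Het, beside 13.9% and 11.6% of all tested genes. Without WT-2404, 1 of 12 (8.33%) was lower by that rule in either comparison, beside 5.29% of all tested genes in KO and 3.61% in Het. The median of the 12 was then -0.89 in KO and -0.88 in Het on the log2 scale. The 10 fibroblast markers summed to 1344 to 4586 CPM in WT, 577 to 1063 in Het and 515 to 1223 in KO. The 9 duct markers summed to 922 to 1458 CPM in WT, 451 to 771 in Het and 452 to 757 in KO. At an unadjusted p under 0.05 in edgeR, 5 of 10 fibroblast and 7 of 9 duct markers were lower in KO, and 6 and 6 in Het. Without WT-2404 these were 5 and 5 in KO, and 2 and 2 in Het. The fibroblast and duct sums of all 7 Het and KO libraries were under those of every WT library. The 7 endothelial markers summed to 112 to 177 CPM in WT, 143 to 161 in Het and 101 to 209 in KO, and overlapped.
Of 8 neutrophil markers in the table the sum was 146 CPM in WT-2404, 12.2 to 13.8 CPM in the other WT libraries, 4.11 to 11.9 in Het and 1.19 to 14.2 in KO. Mpo, Elane, Ngp and Cxcr2 had 0 counts in some libraries. KO-2079, the KO library with the highest Il1b, had a neutrophil sum of 9.46 CPM. T cell markers summed to 6.68 to 14.4 CPM in WT, 3.07 to 3.99 in Het and 2.12 to 9.91 in KO. B cell markers summed to 11.4 to 32.1 CPM in WT, 6.51 to 7.28 in Het and 1.21 to 19.2 in KO, and mast cell markers to 13.6 to 14.6, 11.2 to 14.2 and 12.1 to 23.7 CPM. At an unadjusted p under 0.05 in edgeR, 5 of 6 tested neutrophil, 1 of 7 T cell and 2 of 5 B cell markers were lower in KO. Of all tested genes 13.9% were, and the T cell count was close to that share. In Het these were 4, 3 and 1, beside 11.6% of all tested genes. Without WT-2404 they were 1, 0 and 2 in KO, beside 5.29% of all tested genes, and 1, 2 and 2 in Het, beside 3.61%. Mesothelial markers summed to 20.9 to 36, 18.8 to 46.3 and 22.5 to 49.7 CPM in WT, Het and KO, and adipocyte markers to 40.5 to 49.7, 62.3 to 84.6 and 45.5 to 92.9 CPM. Islet markers summed to 470 to 5636, 4904 to 9764 and 3562 to 8417 CPM. The part of these cell type markers in the results for Il33, Osmr, Socs3 and Il1a was not tested.

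The members were also set against Ptprc within each library, as counts per 100 counts of Ptprc. Il33 had 51.5, 54.3 and 64.1 in WT-2404, WT-1860 and WT-2067, then 60.0, 84.4 and 64.5 in Het-2066, Het-1770 and Het-2042. In KO-2079, KO-2070, KO-2124 and KO-2126 it had 68.1, 50, 31.3 and 112. On this scale the groups overlapped, and the log2 ratio of Il33 differed from WT by 0.06 in KO (p = 0.886, exact permutation) and by 0.29 in Het (p = 0.2, exact permutation). Socs3 had 41.5, 54.3 and 62.5 in WT, 58.5, 73.8 and 53.6 in Het and 81.7, 58.1, 39.1 and 136 in KO, in the same order of mice. Its log2 ratio differed by 0.45 in KO (p = 0.457, exact permutation) and by 0.24 in Het (p = 0.5, exact permutation). Osmr had 46.1, 47.1 and 55.9 in WT, 80.7, 77.0 and 65.5 in Het and 52.9, 87.8, 51.6 and 132 in KO. All 3 Het values of Osmr were above the WT values, by 0.58 in the log2 ratio (p = 0.1, exact permutation), and the KO difference was 0.60 (p = 0.229, exact permutation).
Il6ra and Stat3, whose levels overlapped between the groups, had higher ratios to Ptprc in Het and KO. Ptprc itself averaged 33.5 CPM in WT, 12.2 in Het and 13.7 in KO, so a gene of unchanged level has a higher ratio there. The ratios therefore do not show a rise of either gene. Il6ra had 28.0, 25.6 and 47.7 in WT, 66.7, 91.0 and 96.8 in Het and 50.2, 83.8, 48.6 and 256 in KO. Every Het and KO value lay above the WT values, with log2 differences of 1.37 in Het (p = 0.1, exact permutation) and 1.39 in KO (p = 0.114, exact permutation). Stat3 had 133, 149 and 207 in WT, 372, 480 and 260 in Het and 257, 361, 176 and 930 in KO, with differences of 1.16 in Het (p = 0.1, exact permutation) and 1.13 in KO (p = 0.114, exact permutation). Of the 10 ratios computed against WT, 8 were higher and 2 lower in KO, and the same numbers held in Het. All of them share Ptprc, lower in both groups, as the denominator. Il1a and Ptgs2 were the lower ones, by -1.37 and -0.34 in KO and by -0.20 and -0.12 in Het. None of the 10 ratios to Ptprc in KO against WT had an unadjusted exact permutation p under 0.05. In Het none could, since 0.1 is the smallest value that 3 against 3 mice allow.

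**Figure D4:**
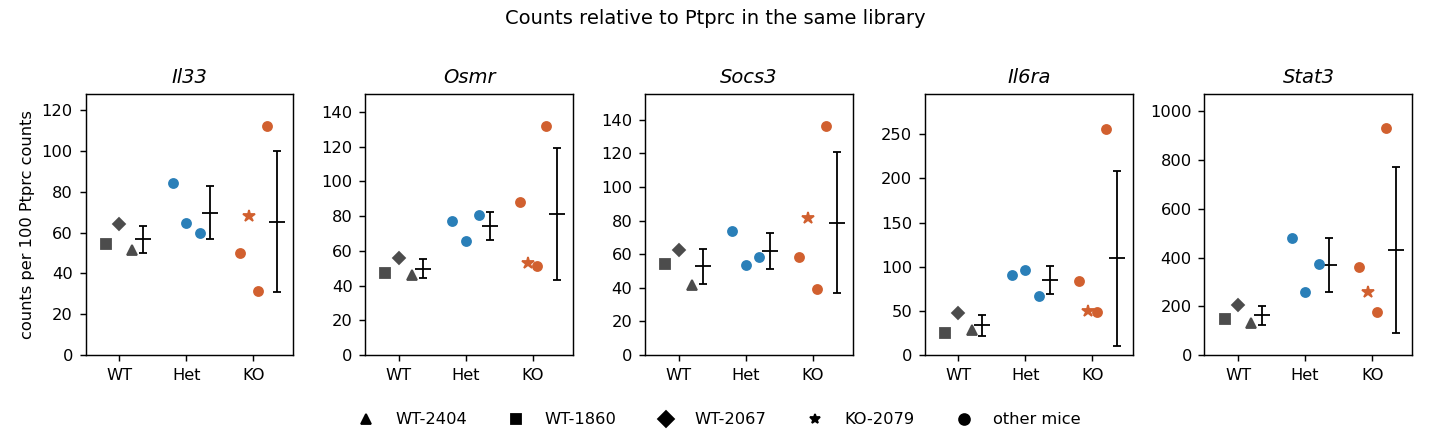
Counts of Il33, Osmr, Socs3, Il6ra and Stat3 per 100 counts of Ptprc in the same library, for WT (n = 3), Het (n = 3) and KO (n = 4), with mean ± SD as black bars and the symbols of the plot of levels. Il33 and Socs3 overlap between the groups on this scale, every Het and KO point of Il6ra lies above the WT points, and KO-2126 is the highest KO point in each panel. KO-2126 had the fewest counts of Ptprc, 50, and lower Ptprc in Het and KO raises the ratios there.

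Other genes of the pathways were followed from 5 lists, with the members left out. Their counts stand beside 13.9% of all tested genes lower and 9.61% higher in KO, and 11.6% lower and 8.26% higher in Het, by the same rule, and beside 5.29% and 3.61% lower without WT-2404. Of the IL-1 family list, 20 of 23 genes were tested, and 7 were lower and 1 higher in KO than in WT at an unadjusted p under 0.05, with none past the adjusted threshold in edgeR. The numbers in Het were also 7 and 1. The gene higher in both was Irak1, at 0.66 in KO and 0.63 in Het, named after its values were seen. Without WT-2404, 2 of 20 were lower in KO and 3 in Het. The lowest p belonged to Il1rn, which encodes the antagonist of the IL-1 receptor: its means were 10.6 ± 3.51, 2.94 ± 1.07 and 2.53 ± 1.88 CPM in WT, Het and KO (SD, n = 3, 3 and 4). Its log2 fold change was -1.99 in KO (SE 0.49, adjusted p = 0.116 in edgeR) and -1.84 in Het (SE 0.54, adjusted p = 0.184 in edgeR). The genes of Gsdmd, the pore protein that lets IL-1 out of cells, of Pycard, the inflammasome adaptor, and of the adaptor Myd88 had log2 fold changes of -1.10, -0.70 and -0.52 in KO against WT. The receptor gene Il1r1 had -0.35 in KO and -0.05 in Het, and Il1rl1, which encodes the IL-33 receptor ST2, had -0.38 in KO and -1.12 in Het.

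Of the IL-6 family list, 23 of 29 genes were tested, and 5 were lower and 1 higher in KO, 6 and 1 in Het. Without WT-2404, 1 was lower and 1 higher in KO, and 2 were lower and 0 higher in Het. The median log2 fold change was -0.04 in KO and -0.12 in Het, close to that of all genes. The ligand genes Lif and Clcf1 had -1.50 and -1.06 in KO and -1.46 and -1.33 in Het, and Ptpn6, which encodes the phosphatase SHP-1, had -0.95 and -0.87. The gene higher in both at an unadjusted p under 0.05 was Lifr, which encodes the receptor chain that pairs with gp130 to bind LIF. Its means were 73.2 ± 32.8, 125 ± 14.2 and 142 ± 25.5 CPM in WT, Het and KO (SD, n = 3, 3 and 4). Its log2 fold change was 0.96 in KO (SE 0.31, adjusted p = 0.125 in edgeR) and 0.77 in Het (SE 0.32, adjusted p = 0.219 in edgeR). Lifr was 0.66 in KO and 0.50 in Het without WT-2404. The shared chain Il6st was at 55.7, 51.4 and 54.0 CPM on average in WT, Het and KO, with log2 fold changes of -0.04 in KO and -0.12 in Het. The kinase genes were close to 0 too, at 0.09 and 0.05 for Jak1 and -0.19 and -0.20 for Jak2, in KO and Het. Osm, the ligand of the Osmr chain, was not tested, with a mean level of 0.520 CPM in WT, 0.0808 in Het and 0.321 in KO. The fold changes of Il6ra, Il6st, Jak1 and Jak2 thus lay between -0.20 and 0.09 in both comparisons.

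Of the TNF pathway list, 24 of 25 genes were tested, and 10 were lower and 0 higher in KO, 8 and 0 in Het. Without WT-2404, 2 were lower in KO and 3 in Het. Tnfrsf12a, which encodes the receptor of the cytokine TWEAK, had means of 12.3 ± 4.45, 4.15 ± 1.17 and 3.42 ± 1.90 CPM in WT, Het and KO (SD, n = 3, 3 and 4). Its log2 fold change was -1.80 in KO (adjusted p = 0.116 in edgeR) and -1.57 in Het (adjusted p = 0.184 in edgeR). Of the TNF receptors, Tnfrsf1b had -1.07 in KO and -1.15 in Het and Tnfrsf1a -0.41 and -0.25. Adam17, which encodes the protease that releases TNF from cells, had -0.80 and -0.78. The NF-kappaB inhibitors Tnip1 and Tnfaip3 had -0.79 and -0.55 in KO and -0.79 and -1.02 in Het.

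Of the STAT3 target list, 17 of 18 genes were tested, and 10 were lower and 1 higher in KO, 8 and 1 in Het. The median log2 fold change was -0.84 in KO and -0.74 in Het. Without WT-2404, 5 were lower in KO and 3 in Het, and the medians were -0.53 and -0.64. The higher gene was Myc in KO (0.99) and Fgl2 in Het (0.93), both named after their values were seen. Timp1, which encodes an inhibitor of matrix metalloproteinases, had means of 30.6 ± 22.2, 5.08 ± 0.389 and 3.34 ± 3.10 CPM in WT, Het and KO (SD, n = 3, 3 and 4). Its log2 fold change was -3.11 in KO (SE 0.67, adjusted p = 0.116 in edgeR), and -2.39 without WT-2404. In Het it was -2.60 (SE 0.73, adjusted p = 0.184 in edgeR), and -1.88 without WT-2404. The acute phase genes Lcn2 and Hp had -2.85 and -2.21 in KO, which were -1.88 and -1.04 without WT-2404, so these values leaned on that library. Il4ra, the receptor chain of IL-4 and IL-13, had -1.73 in KO and -1.52 in Het.

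Of the prostaglandin list, 18 of 20 genes were tested, and 5 were lower and 0 higher in KO, 4 and 0 in Het, but 0 were lower in either without WT-2404. Pla2g4a, which encodes the phospholipase that frees arachidonic acid, had -1.39 in KO and -1.29 in Het. The synthase genes Tbxas1 (thromboxane), Hpgds (prostaglandin D2) and Ptges (prostaglandin E2) had -1.75, -1.46 and -0.77 in KO. Tbxas1 and Hpgds were -0.88 and -0.79 in KO without WT-2404, and the prostacyclin receptor gene Ptgir had -0.95 with all libraries. In KO against Het, no gene of the 5 lists had an unadjusted p under 0.05 in edgeR, beside only 0.752% of all tested genes.

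**Figure D5:**
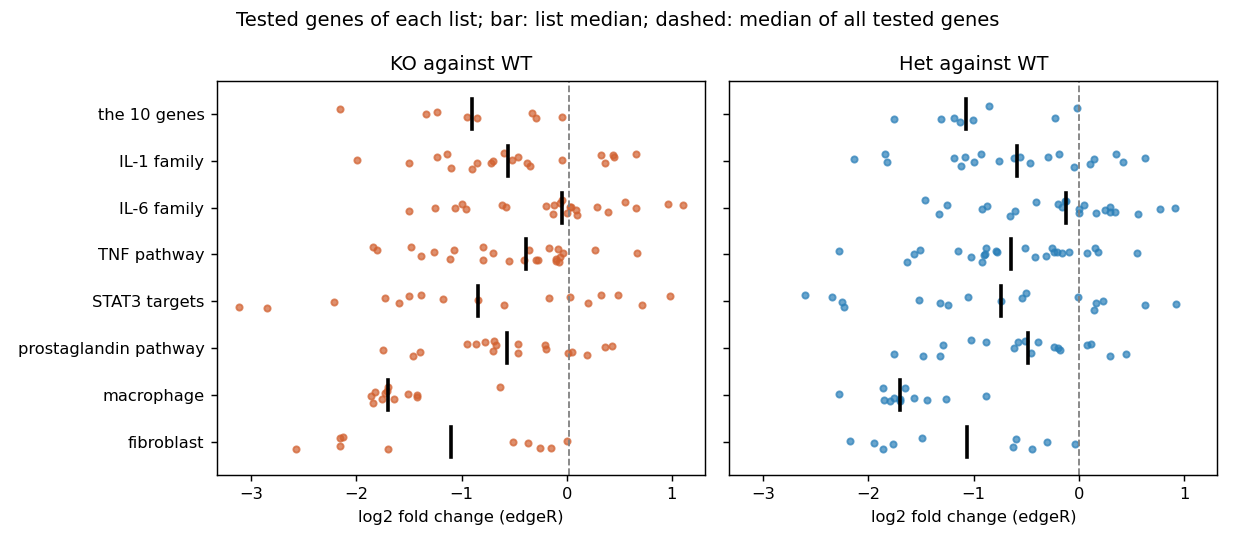
Log2 fold change of every tested gene of the 10 genes, the 5 pathway lists and the macrophage and fibroblast markers, for KO (left) and Het (right) against WT. Points are genes, bars are list medians and the dashed line is the median of all tested genes. The STAT3 targets have the lowest median of the 5 pathway lists, -0.84 in KO and -0.74 in Het, and the IL-6 family lies near the dashed line.

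Among the other tested genes, those with the most similar pattern over the 10 libraries were found by the root mean square difference of centred log2 CPM. For Il33 these were Wdr1 (0.176) and Actb (0.185), beside a root mean square of 0.678 of Il33 around its own mean, against which the distance is to be read. For Socs3 (own value 0.592) they were Cyr61 (0.186) and Sbno2 (0.227), and for Osmr (0.456) Chd3 (0.115) and Slc15a4 (0.118). For Stat3 (0.231) they were Fmod (0.0798) and Lrrfip1 (0.104), and for Il6ra (0.252) Mapk13 (0.134) and Card6 (0.135). The low-count members varied more, with Naip1 (0.367) and Otop3 (0.445) nearest to Il1a (1.5), Ly75 (0.400) and Slc15a3 (0.483) to Il1b (0.936), and Gm9926 (0.442) to Ptgs2 (1.16). Without WT-2404 each of these genes stayed among the 7 nearest genes of their member.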

How the data were processed

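Gene counts of 10 pancreas tail libraries were analysed: 3 WT, 3 Het and 4 KO, each 1 mouse. The deposited values are raw counts per gene symbol, made by the authors, with mouse and genotype in each column name, per the file headers. Per the submitters' processing notes, mm10, DRAGEN, STAR and Cufflinks were used, in roles not given. The counting tool, the annotation and the use of strand are not given in the sources used here, so genes that overlap others are uncertain. Per the labels' protocols, frozen tissue was crushed and RNA was isolated with a column kit. The genotype has 1 further element, which all groups share. Neither it nor 1 gene of similar pattern to a member is reported here. The 2 lines of the table that name no gene (2.59% to 8.71% and 0.101% to 0.584% of counts) stayed out of library sizes and tests.

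Genes passing filterByExpr (minimum count 10) were fitted with edgeR 4.0.16 in R 4.3.3 (glmQLFit and glmQLFTest, robust, TMM scaling, two-sided) over all 10 libraries at once, without covariates. P-values had the Benjamini-Hochberg adjustment over the 13688 tested genes, at a threshold of 0.05. Log2 CPM used a prior count of 2. Values are mean ± SD over mice. Intervals at 95% use the test's own degrees of freedom. The labels give no litter or batch, so a difference of that kind between the groups cannot be told apart from genotype. P-values measure the spread between these mice, each sampled by 1 piece of tissue. Ratios to Ptprc are differences of log2 counts with 0.5 added, compared by exact permutation over the mice, with no adjustment over the 10 ratios. Alternatives were DESeq2 1.42.0, its size factors, library size alone, scaling without enzyme genes, no filter, the 2 groups alone, other denominators for the ratios, and leaving out each library. Gene positions and exon lengths came from GENCODE M21 on GRCm38, which has the same coordinates as mm10, and promoters from RefSeq.

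Named beside the members were, of each pathway list, up to 4 tested genes with the smallest unadjusted p in KO against WT and a few receptors, kinases and ligands set by name, and for each tested member the 2 genes with the most similar pattern. The members and the lists were chosen with earlier results of these data known. The fit was tested on simulated counts.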

Additional observations from a re-analysis of the deposited data

How the results depend on the processing

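No gene passed the adjusted threshold with edgeR, although 3222 (KO against WT), 2715 (Het against WT) and 103 genes (KO against Het) had an unadjusted p under 0.05. DESeq2 passed 1009 genes in KO and 326 in Het against WT, and edgeR with library size alone 2841 and 3140. Library size alone moved the median of all genes by -1.17, -1.36 and 0.17 in the 3 comparisons, so values under it are read relative to that shift. It gave 6295, 6991 and 14 genes at an unadjusted p under 0.05, with 7 and 8 members among them against WT and member medians of -2.08 and -2.48. Without the low-count filter, 183 genes had such a p in KO against Het. Leaving out 1 library at a time gave 0 to 1932 adjusted calls for KO and 0 to 1160 for Het against WT, the most without WT-2067. The genes at an unadjusted p under 0.05 then numbered 1297 to 4600, 1083 to 4264 and 106 to 178, the members 3 to 5 in both comparisons with WT, and the member medians ran from -1.27 to -0.79 and from -1.28 to -0.83.

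Of 303 alternatives for single members' fold changes, 260 kept direction and side of the threshold and 21 passed it where the reported values did not. Of the 200 in the comparisons with WT, 5 turned the sign, all for Il6ra: -0.18 to 0.048 in KO and -0.21 to 0.16 in Het with 1 library left out, and 0.0025 in Het when scaled without enzyme genes. In KO against Het, library size alone gave 0.025 for Il33, 0.14 for Il6ra and 0.093 for Stat3, and scaling without enzyme genes -0.0063 for Osmr. With 1 library left out, that comparison ran from -0.83 to 0.024 for Il1a, -0.31 to 1.27 for Il1b, -0.20 to 0.16 for Il6ra, -0.21 to 0.12 for Osmr, -0.25 to 0.068 for Stat3, -0.030 to 0.39 for Socs3 and -0.65 to 1.21 for Ptgs2.

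Of 260 alternatives for the ratios, 225 kept their direction and their side of an exact permutation p of 0.05. With 3 against 3 mice the smallest possible p is 0.1, so with that number or fewer only the direction could change. Only the other denominators, in the comparisons that hold all 4 KO mice, could change side. The ratio of Socs3 to the summed fibroblast markers, an alternative chosen after seeing the data, was 0.62 higher in KO than in WT (p = 0.0286, exact permutation, the smallest possible). Its log2 values had an SD of 0.878 in WT (n = 3), beside 0.106 in KO (n = 4). The fibroblast sum was 4586 CPM in WT-2404, but 1980 in WT-1860 and 1344 in WT-2067. The size of this difference thus leans on WT-2404, and the ratio was not computed without that library. With 1 library left out, the ratios to Ptprc that turned their sign ran as follows. In KO against WT the range was -0.25 to 0.36 for Il33, -0.23 to 0.78 for Il6, -0.40 to 0.65 for Tnf and -0.75 to 0.29 for Ptgs2. In Het against WT it was -0.47 to 0.26 for Il1a, -0.065 to 0.87 for Il1b, -0.048 to 0.74 for Il6, -0.11 to 0.88 for Tnf and -0.90 to 0.56 for Ptgs2. In KO against Het it was -0.23 to 0.70 for Il1b, -0.54 to 0.075 for Il33, -0.47 to 0.54 for Il6, -0.81 to 0.16 for Tnf, -0.51 to 0.29 for Il6ra, -0.26 to 0.20 for Osmr, -0.50 to 0.29 for Stat3, -0.11 to 0.49 for Socs3 and -0.90 to 0.55 for Ptgs2. There the Stat3 ratio was 0.11 over the macrophage and 0.094 over the fibroblast marker sum. The causes were not tested. At this depth, Il6, Tnf, Il1a, Il1b and Ptgs2 had 3 or fewer counts in at least 1 library each, so single reads move their values. No paired analysis was possible because no mouse number in the labels is shared by 2 libraries.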

Other observations

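KO-2079 was the KO library with the highest level of 6 of the 10 members, and was looked at after its values were seen. It held 2.97 CPM of Il1b and 0.618 CPM of Il6, the highest of all 10 libraries, with 48 and 10 counts. Its Socs3 (13.3 CPM) and Il33 (11.1 CPM) were the highest of the 7 Het and KO libraries. Its Ptprc level of 16.3 CPM was under the 23.7 CPM of KO-2124, and its enzyme share of 74.3% lay between those of KO-2124 (65.3%) and KO-2070 (80.7%). KO-2124, with more Ptprc, had 0.968 CPM of Il1b, 0.0922 CPM of Il6 and 9.27 CPM of Socs3. The fibroblast marker sum of KO-2079, 1223 CPM, was the highest of the 7 Het and KO libraries, with 868 CPM in KO-2124. The duct marker sum of KO-2079, 757 CPM, was the highest of the KO libraries, with 494 CPM in KO-2124. The order of these libraries by Il1b and Il6 thus differed from their order by Ptprc.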
